A study of Rattus norvegicus with 16 samples.

Results

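Hearts of newborn female rats of the strains HHR and NHR were compared for their microRNAs (miRNAs). The HHR, or Hypertrophic Heart Rat, develops an enlarged heart of polygenic origin, and the NHR, or Normal Heart Rat, is its control strain. The 8 hearts, 4 of each strain, came from females 2 days old, and they are 8 of the 16 hearts of the study. The other 8, 4 of each strain, came from males of the same age. No agent or transgene was given to any animal. Heart size is labelled hypertrophic for HHR and normal for NHR, without a measured size. The labels differ on the tissue, since 1 entry names the whole heart and another names ventricles freed of the atria. Each heart gave 100 ng of total RNA to 1 Agilent rat miRNA array, read in 1 colour, so that each array is a separate animal. Described here are the miRNAs that the scanner software marked as detected on at least 4 of the 8 female arrays, which were 222 of the 677 on the array. Of these, 192 were detected on all 8 arrays and 30 on 4 to 7, while 431 of the 677 were detected on none of the 8 and 24 on 1 to 3.

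miRNAs are short RNAs cut from hairpin precursors, and they lower the stability and translation of messenger RNAs that pair with their 5′ end, called the seed. Many lie in clusters copied as 1 primary transcript or in introns of host genes, and both arms of a hairpin can give a mature miRNA. In the heart, miR-1, miR-133, miR-208 and miR-499 are products of cardiac muscle, and miRNAs of the miR-15 and miR-34 families are known to restrain the division of heart muscle cells after birth. Names below are those of the array, on which a star marks the arm that was thought to be the minor one.

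The mature sequences that the results turn on are shown first, from RefSeq on the rat build GRCr8, with the seed (bases 2 to 8) in capitals. RefSeq sequences were found for 195 of the 222 miRNAs. miR-34a, at chr5:165815971-165815992 on the plus strand, had the largest difference among the miRNAs higher in HHR:
miR-34a: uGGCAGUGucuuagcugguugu
Both arms of the miR-378 hairpin, inside the span of Ppargc1b on the minus strand (chr18:57128925-57128945 and chr18:57128962-57128983), and miR-218, which has a copy inside Slit2 on chromosome 14 and another inside Slit3 on chromosome 10, were also higher in HHR:
miR-378: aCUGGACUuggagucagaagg
miR-378*: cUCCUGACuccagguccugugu
miR-218: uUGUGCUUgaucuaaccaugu
The miRNAs of the cluster inside the span of Clcn5 (chrX:17919185-17930726, plus strand) were all lower in HHR, and 5 of them have a RefSeq entry here. Their seeds differ from each other:
miR-532-5p: cAUGCCUUgaguguaggacugu
miR-532-3p: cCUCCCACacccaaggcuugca
miR-188: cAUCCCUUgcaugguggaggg
miR-362*: aACACACCuguucaaggauuca
miR-500: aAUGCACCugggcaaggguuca
The 5 miRNAs with the seed of the miR-15 family share that seed but not the size of their difference. miR-497 and miR-195 lie together at chr10:55450171-55450581 on the plus strand, miR-15b and miR-16 together inside Smc4, and miR-322 on chromosome X:
miR-195: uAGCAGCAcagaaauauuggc
miR-497: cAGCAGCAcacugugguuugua
miR-15b: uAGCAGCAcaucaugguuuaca
miR-16: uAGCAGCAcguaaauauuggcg
miR-322: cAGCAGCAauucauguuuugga
The remaining ones stand for other cell types and for the muscle itself. miR-223 is known from myeloid cells, miR-126 from endothelium, where it lies in Egfl7, and miR-499 from heart muscle, where it lies in the myosin gene Myh7b:
miR-223: uGUCAGUUugucaaauacccc
miR-126: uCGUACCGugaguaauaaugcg
miR-499: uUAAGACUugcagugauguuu

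The arrays were alike in how much they detected, with 221 ± 6.18 miRNAs per HHR array and 218 ± 14.3 per NHR array (SD, n = 4). A two-sided exact permutation test gave p = 0.714 for this difference, where 0.0286 is the smallest p that 4 against 4 can give. The unscaled brightness, taken as the 75th percentile over the 267 bright probes (those above background throughout the 8 arrays), was 466 ± 18.0 in HHR and 351 ± 72.6 in NHR (SD, n = 4, intensity units). This difference gave p = 0.0857 in the same exact test and 0.171 after Benjamini-Hochberg adjustment over the 2 array measures. NHR female 3, at 459.8, stood apart from the other NHR arrays, which lay between 312.3 and 315.9. Without that array the difference was 151.3 (exact permutation p = 0.0286, the smallest possible). Within slide 1 it was 163.5 and within slide 2 it was 66.5, with 2 arrays of each strain on each slide. Across the 222 miRNAs the levels of 2 arrays correlated at 0.992 to 0.997 within HHR, 0.981 to 0.996 within NHR and 0.968 to 0.991 between strains, which is a description over miRNAs of the same arrays. The spread between hearts was larger in NHR for 154 of the 222 miRNAs.

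Levels are given as log2 of the scaled intensity, and differences as HHR minus NHR on that scale. A miRNA is called different where the adjusted p from limma, a linear model with variances moderated across all 222 miRNAs, was under 0.05. With the scaling used here, more miRNAs were called lower in HHR than higher. The other scalings, given below, did not keep this excess, so the shares that follow hold for the scaling used. Of the 222, 76 were called (34.2%), of which 12 were higher in HHR (5.41%) and 64 lower (28.8%). The measured means differed by at least 1.5-fold for 1 of the higher and 15 of the lower ones. Of these 15, 10 were well above background in both strains, while for the other 5 (miR-466b, miR-211*, miR-188, miR-92b and miR-192) the HHR level is only a bound and a 1.5-fold difference is not shown. The median difference over all 222 was −0.12, and 165 differences were below 0. The levels of the strains did not overlap for 83 miRNAs (37.4%), of which 12 were higher (5.41%) and 71 lower (32%). Of these 83, 67 were called, and 9 called miRNAs had overlapping levels. Without HHR female 1 the number called was 41, the lowest on leaving out 1 heart. Among the miRNAs named below, that heart alone decided the calls of miR-126, miR-126*, miR-1*, miR-23b, miR-92b and miR-3593-3p. The calls of miR-23a, miR-30c, miR-181d, miR-15b, miR-27a and miR-672 were lost without it and also without 1 or more other hearts. So were those of let-7a, let-7d, miR-143, miR-7a, miR-466b, miR-300-3p and miR-503. With the slide as a block 85 were called, 75 of them among the 76. Within slide 1 and within slide 2 the differences of all 76 had the sign of the difference over all 8 arrays, and 44 and 22 miRNAs were called there. Of all 222, 189 had the same sign on both slides. The 76 were chosen on these same arrays, so their shared sign is a description and not separate support.

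How the arrays were set to a common brightness decided the direction of many small differences. Reported levels were scaled to the 75th percentile of the bright probes, and 5 other ways moved the differences up. The median of the shifts of single miRNAs was 0.20 (quantile normalization), 0.20 (median centring), 0.31 (spike-in controls), 0.32 (the percentile over all probes) and 0.43 (no scaling). The called miRNAs split into 28 higher and 23 lower after quantile normalization, 60 and 23 after median centring, 102 and 18 with the percentile over all probes, 8 and 1 with the spike-ins, and 9 and 0 without scaling. Higher calls thus outnumbered lower ones under each of these 5. All 12 higher calls and 35 of the 64 lower ones kept their sign under all 6. Since the 5 other ways moved the differences up, they put the sign of lower calls at risk and hardly that of higher ones. The 8 miRNAs called with the same sign under all 6 (3.6%) were miR-34a, miR-410, miR-338, miR-431, miR-598-3p, miR-218, miR-378 and miR-378*, and all were higher in HHR. That is the side toward which the shifts went. Under the 4 scalings that use the rat probes, 24 miRNAs were called the same way in each. These were the 12 higher ones and, as lower ones, miR-1249, miR-150, miR-188, miR-192, miR-211*, miR-219-5p, miR-3085, miR-362, miR-362*, miR-500, miR-532-3p and miR-532-5p. The other lower calls are therefore best read against these shifts of 0.20 to 0.43 as well as the median of −0.12. Some of them kept their sign under all 6. Others turned, such as miR-499 at −0.29, which was above 0 with the percentile over all probes, with the spike-ins and without scaling.

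**Figure D1:**
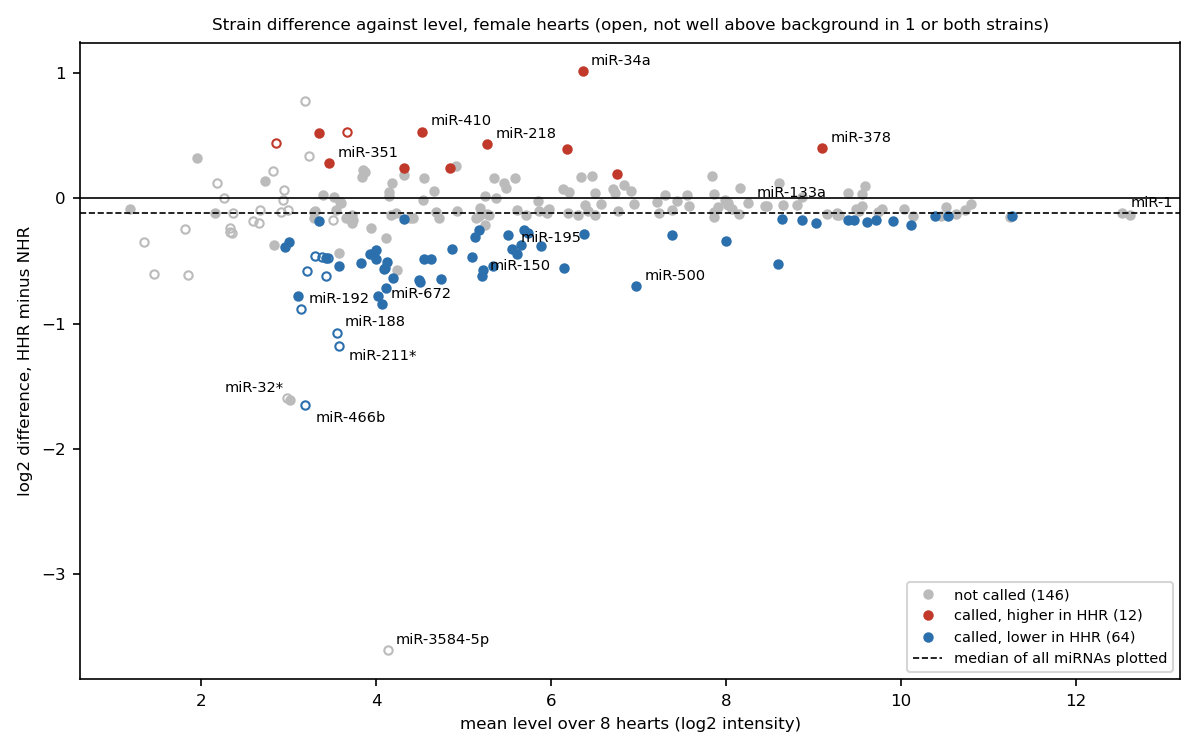
Each point is 1 of the 222 miRNAs, with its mean log2 intensity over the 8 female hearts on the x axis and its log2 difference, HHR minus NHR, on the y axis. The 12 higher and 64 lower calls are coloured, open points were not well above background in 1 or both strains, and the dashed line is the median of −0.12. Under the other 5 scalings the median shift of the points is 0.20 to 0.43 upward.

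miR-34a, a target of the p53 transcription factor and a brake on cell division, was the only called miRNA whose measured mean was at least 1.5-fold higher in HHR. Its log2 levels were 6.99, 6.80, 6.95 and 6.71 in the 4 HHR hearts and 5.79, 5.76, 5.93 and 5.92 in the NHR hearts. The lowest HHR heart lay above the highest NHR heart by more than the spread within either strain. The difference was 1.01 ± 0.07 (SE), a 2.01-fold change, with an adjusted p of 4.64e-05. It was 1.12 within slide 1 and 0.91 within slide 2, and the scalings took it from 1.01 to 1.44. The 2 relatives with the same seed, miR-34b and miR-34c, were not well above background on any of the 8 arrays, and no fold is given for them.

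Both arms of the miR-378 hairpin were higher in HHR by nearly the same amount. This hairpin lies in Ppargc1b, a coactivator gene of mitochondrial metabolism, and miR-378 is known to restrain growth signalling in heart muscle cells. miR-378 lay at 9.41, 9.17, 9.28 and 9.34 in HHR and at 8.96, 8.86, 8.88 and 8.90 in NHR. Its difference was 0.40 ± 0.06 (SE, adjusted p = 0.00123). The other arm, miR-378*, differed by 0.39 ± 0.06 (SE, adjusted p = 0.00257). Levels of the strains did not overlap for either arm.

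miR-218, made from introns of the axon and vessel guidance genes Slit2 and Slit3, was higher in HHR as well. The HHR hearts read 5.42, 5.57, 5.45 and 5.49, and the NHR hearts 5.01, 5.04, 5.18 and 4.98. The strains did not overlap, and the difference was 0.43 ± 0.06 (SE, adjusted p = 8.44e-04). miR-218 is also known from neurons. The neural markers miR-9, miR-9*, miR-124, miR-124*, miR-129, miR-137 and miR-138 were detected on none of the 8 arrays. Of the other markers of that list, miR-128 differed by −0.02 (adjusted p = 0.75) and miR-7a was lower by 0.35 (adjusted p = 0.0288), a call lost on leaving out any of 6 hearts. The star arms of the miR-129 hairpins, miR-129-1* and miR-129-2*, were among the tested miRNAs and were called lower, by 0.48 and 0.54.

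2 dimmer miRNAs were higher in HHR and had no NHR array well above background. miR-338, from an intron of the kinase gene Aatk, read 3.84 to 4.09 in HHR and 3.32 to 3.52 in NHR (adjusted p = 8.44e-04). miR-598-3p read 3.03 to 3.16 in HHR, with 2 of 4 arrays well above background, and 2.49 to 2.74 in NHR (adjusted p = 9.92e-04). The strains did not overlap for either, and no fold is given since the NHR level is only a bound.

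The Dlk1-Dio3 region on chromosome 6 holds a large imprinted group of miRNAs, expressed from the maternal copy and abundant before and around birth. Of its 58 listed miRNAs, 21 were among the 222, and 3 were called higher and 3 lower, with a median difference of 0.12 against −0.12 over all 222, of which 5.41% were called higher and 28.8% lower. miR-410 lay at 4.57, 5.02, 4.76 and 4.79 in HHR and at 4.17, 4.36, 4.35 and 4.15 in NHR (difference 0.53 ± 0.10, SE, adjusted p = 0.0051). miR-431, which overlaps the retrotransposon-derived gene Rtl1, differed by 0.52 ± 0.11 (SE, adjusted p = 0.00943), though only 1 of 4 NHR arrays was well above background. miR-300-3p differed by 0.24 (adjusted p = 0.0432), and this call was lost on leaving out any of 6 hearts. The lower ones were miR-409-3p at −0.49 (adjusted p = 0.0132), miR-494 at −0.45 (adjusted p = 0.00735) and miR-667, which was not well above background on any array. By position on GRCr8, 2 miRNAs that are not on the list also fall between its outermost tested hairpins (chr6:134321142-134579838). Both were called lower, miR-3544 by 0.51 (adjusted p = 0.0191) and miR-1188-3p, not well above background on any array, by 0.47 (adjusted p = 0.0309), and they are named after their values were seen. Counted by position, 22 tested miRNAs lie there, with 3 higher and 5 lower calls. Members of 1 imprinted region thus had called differences of both signs in females, and the 3 higher and 3 lower calls of the list kept their sign under all 6 scalings. In males 0 of the 21 listed ones were called either way, with a median difference of −0.00083 against −0.09 over all 222.

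A second group with higher members was the X-linked cluster of miR-322, miR-503 and miR-351, known from differentiating muscle. Of its 7 tested members 2 were called higher and 0 lower, against 5.41% and 28.8% of all 222, with a median of 0.07. miR-351 differed by 0.28 ± 0.08 (SE, adjusted p = 0.0243) and miR-503 by 0.19 ± 0.06 (SE, adjusted p = 0.0415). The strains overlapped for both, since NHR female 3 was at 3.50 for miR-351 and 6.82 for miR-503, above or level with the lowest HHR heart. The call for miR-351 was lost on leaving out any of 3 hearts and that for miR-503 on leaving out any of 7. miR-322 differed by −0.10 (adjusted p = 0.0962). In the H19 and Igf2 group, miR-675*, cut from the growth-restraining RNA H19, differed by 0.24 ± 0.05 (SE, adjusted p = 0.00635), while miR-483 of Igf2 differed by −0.09 (adjusted p = 0.292).

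The miRNAs of the Clcn5 cluster made the most uniform lower group. All 6 tested members of 12 listed were called lower, against 28.8% of all 222, with a median of −0.71, and none of their levels overlapped between strains. Clcn5 itself encodes a chloride transporter of endosomes. miR-500 lay at 6.56, 6.68, 6.66 and 6.59 in HHR and at 7.35, 7.25, 7.36 and 7.34 in NHR. The highest HHR heart lay well below the lowest NHR heart, and the difference was −0.70 ± 0.05 (SE, 1.63-fold, adjusted p = 4.64e-05). miR-532-3p lay at 3.69 to 3.83 in HHR and 4.40 to 4.57 in NHR (−0.72 ± 0.05, SE, adjusted p = 4.64e-05). The other arm of that hairpin, miR-532-5p, differed by −0.56 ± 0.06 (SE, adjusted p = 3.91e-04). Both arms of miR-362 were lower, miR-362 by 0.78 (adjusted p = 0.00119) and miR-362* by 0.57 (adjusted p = 3.91e-04). miR-188 was not well above background on any HHR array. Its mean log2 level was 3.01 in HHR and 4.08 in NHR, which puts it at least 1.34-fold lower in HHR (adjusted p = 0.0032). The sign held for all 6 under all 6 scalings, although none of them was called without scaling. In the log2 values that the authors deposited, 0 of the 222 were called lower, and with the spike-ins 1 was.

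**Figure D2:**
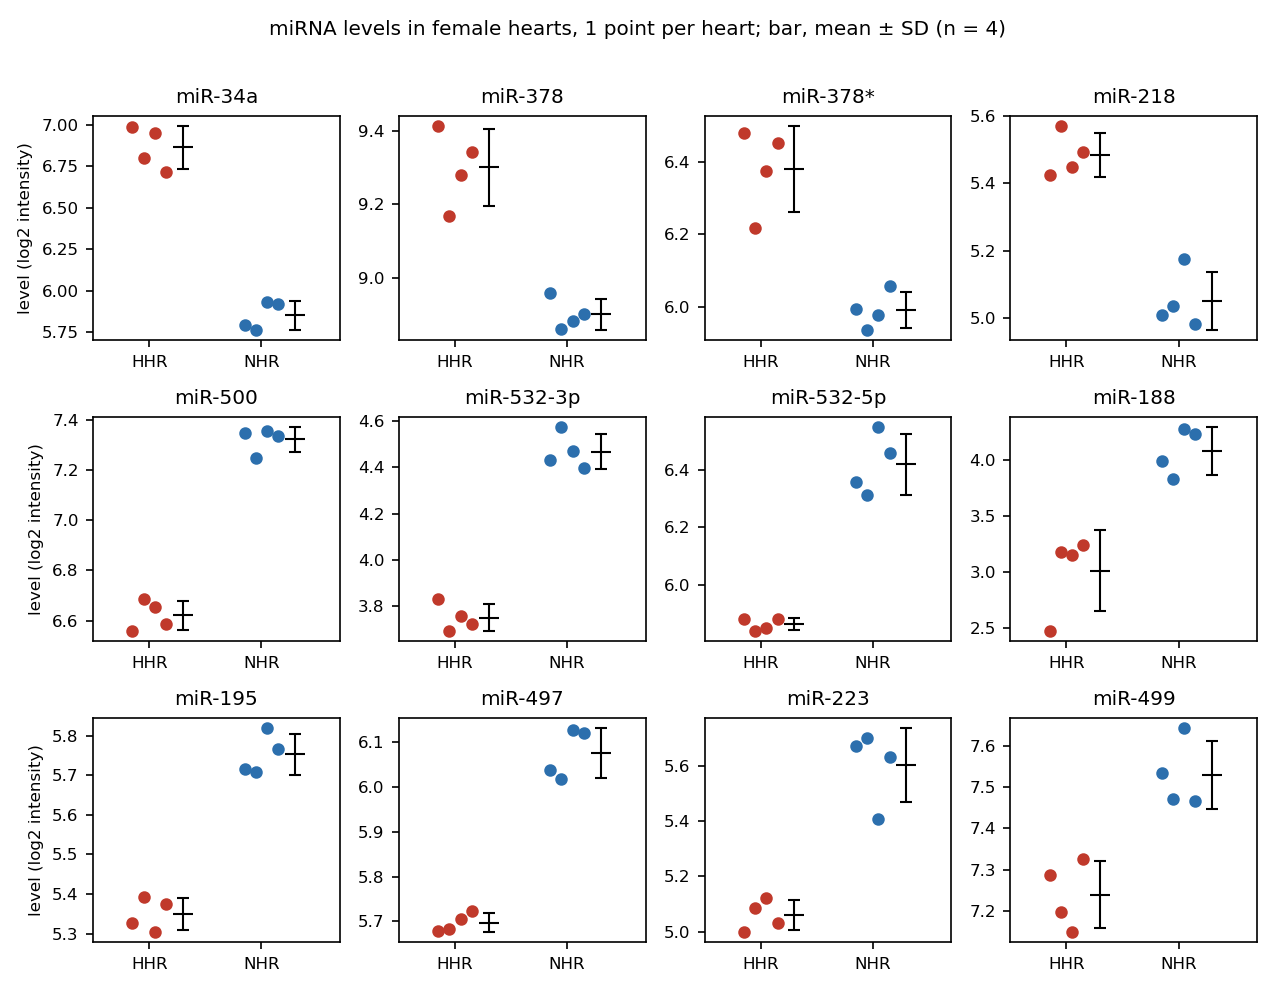
Log2 intensity of 12 miRNAs (y axis, each panel on its own range) in the 4 HHR and 4 NHR female hearts (x axis), 1 point per heart, with the mean and SD (n = 4) at the right. The strains do not overlap in any of the 12 panels, the top row being higher in HHR and the other 8 lower; without scaling miR-195, miR-497 and miR-499 change sign, miR-499 also with the percentile over all probes and with the spike-ins, and miR-188 was not well above background in HHR.

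In the miR-15 family, which is known for stopping the division of heart muscle cells soon after birth, 3 of 5 members were called lower and 0 higher, with a median of −0.17, where 28.8% of all 222 were called lower and their median was −0.12. The 2 members of 1 cluster differed most. miR-195 lay at 5.33, 5.39, 5.30 and 5.38 in HHR and at 5.72, 5.71, 5.82 and 5.77 in NHR (−0.40 ± 0.04, SE, adjusted p = 3.91e-04). miR-497 lay at 5.68 to 5.72 in HHR and 6.02 to 6.13 in NHR (−0.38 ± 0.04, SE, adjusted p = 4.18e-04). Both kept a lower level in HHR under 5 of 6 scalings and were at 0.03 and 0.05 without scaling. miR-15b was lower by 0.17 (adjusted p = 0.0185), close to the median of all 222, and its sign turned under 4 of the 6 scalings. Its cluster partner miR-16 differed by −0.13 (adjusted p = 0.0907). The shared seed thus came with differences from −0.40 to −0.10, and the larger ones were of 1 cluster.

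Among miRNAs typical of leukocytes, 3 of 5 tested were called lower in HHR and 0 higher, against 28.8% and 5.41% of all 222, with a median of −0.38. In bulk hearts, fewer cells of a type and less of the RNA per cell cannot be told apart. miR-150, known from mature lymphocytes, lay at 4.83, 4.85, 4.94 and 4.95 in HHR and at 5.50, 5.47, 5.55 and 5.53 in NHR (−0.62 ± 0.04, SE, adjusted p = 4.64e-05). miR-223 lay at 5.12 or less in the HHR hearts and at 5.41 to 5.70 in the NHR hearts (−0.54 ± 0.07, SE, adjusted p = 8.44e-04). miR-146a, a feedback inhibitor of inflammatory signalling, was lower by 0.38 (adjusted p = 0.00138), with sign held under 5 of 6 scalings. The pan-leukocyte miR-142-3p differed by −0.15 (adjusted p = 0.19) and miR-342-3p by −0.09 (adjusted p = 0.128). miR-142-5p was detected on no array. The summed level of the tested members was 290.5 to 321.2 intensity units in HHR and 353.6 to 372.7 in NHR. Of the red blood cell miRNAs miR-144, miR-144* and miR-451, 0 of 3 were called, with a summed level of 258.3 to 314.4 in HHR and 247.2 to 307.7 in NHR. The part of cell makeup in these differences was not tested.

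The endothelial hairpin miR-126, which supports vessel integrity, gave lower levels of both arms in HHR, by 0.21 ± 0.05 for miR-126 (SE, adjusted p = 0.0132) and 0.25 ± 0.05 for miR-126* (SE, adjusted p = 0.00849). miR-126 lay at 9.98 to 10.06 in HHR and at 10.18, 10.16, 10.34 and 10.19 in NHR, without overlap. These differences exceed the median of all 222 by about 0.1, and both turned positive with the percentile over all probes, with the spike-ins and without scaling. miR-130a differed by −0.05 (adjusted p = 0.427). Of the endothelial list 3 of 5 were tested, and the summed level was 2745 to 2905 in HHR and 2917 to 3287 in NHR. miR-143 of smooth muscle was lower by 0.14 (adjusted p = 0.0232), a call lost on leaving out any of 6 hearts, and its sign turned under 4 scalings. None of the 4 tested fibroblast markers was called, with differences of 0.17 for miR-199a-5p, 0.12 for miR-214, 0.09 for miR-199a-3p and −0.15 for miR-21. Their summed level was 3668 to 3862 in HHR and 3686 to 4146 in NHR.

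Heart muscle miRNAs were mostly not called. miR-499 was the 1 of 6 tested members of the list that was called lower, against 28.8% of all 222, and 0 were called higher. The list does not hold miR-1* and miR-133a*, so this count leaves them out. It lay at 7.29, 7.20, 7.15 and 7.33 in HHR and at 7.54, 7.47, 7.64 and 7.47 in NHR (−0.29 ± 0.06, SE, adjusted p = 0.00735), and it turned to 0.14 without scaling, 0.03 with the percentile over all probes and 0.02 with the spike-ins. miR-1 read 12.53, 12.38, 12.38 and 12.59 in HHR and 12.61, 12.60, 12.47 and 12.68 in NHR. The strains overlapped, and the 95% interval of the difference ran from −0.27 to 0.03 (adjusted p = 0.178). For miR-133a the interval was −0.16 to 0.08 (adjusted p = 0.576). Other scalings moved both above 0. miR-133a was then called higher in HHR with the percentile over all probes (0.28, adjusted p = 0.019) and with median centring (0.16, adjusted p = 0.0211). miR-208b-3p, of the slow myosin gene Myh7, differed by −0.24 (adjusted p = 0.0759). The opposite arm of the miR-1 hairpin, miR-1*, was called lower by 0.51 (adjusted p = 0.00741), while miR-1 itself was not. No single probe of miR-1* was well above background on all 8 arrays. Its call was lost in 9 of 22 alternatives, left-out hearts aside. All 6 tested muscle miRNAs of the list were well above background on all 8 arrays. Of 14 listed miRNAs of liver, kidney and epithelium, 12 were detected on no array, among them miR-122, miR-200a, miR-200b, miR-200c, miR-141, miR-203, miR-205 and miR-375. miR-194 was detected on 1 array. miR-192 was detected on 7 and was called lower in HHR, by 0.89 between the measured means (adjusted p = 5.60e-04), with no HHR array well above background.

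**Figure D3:**
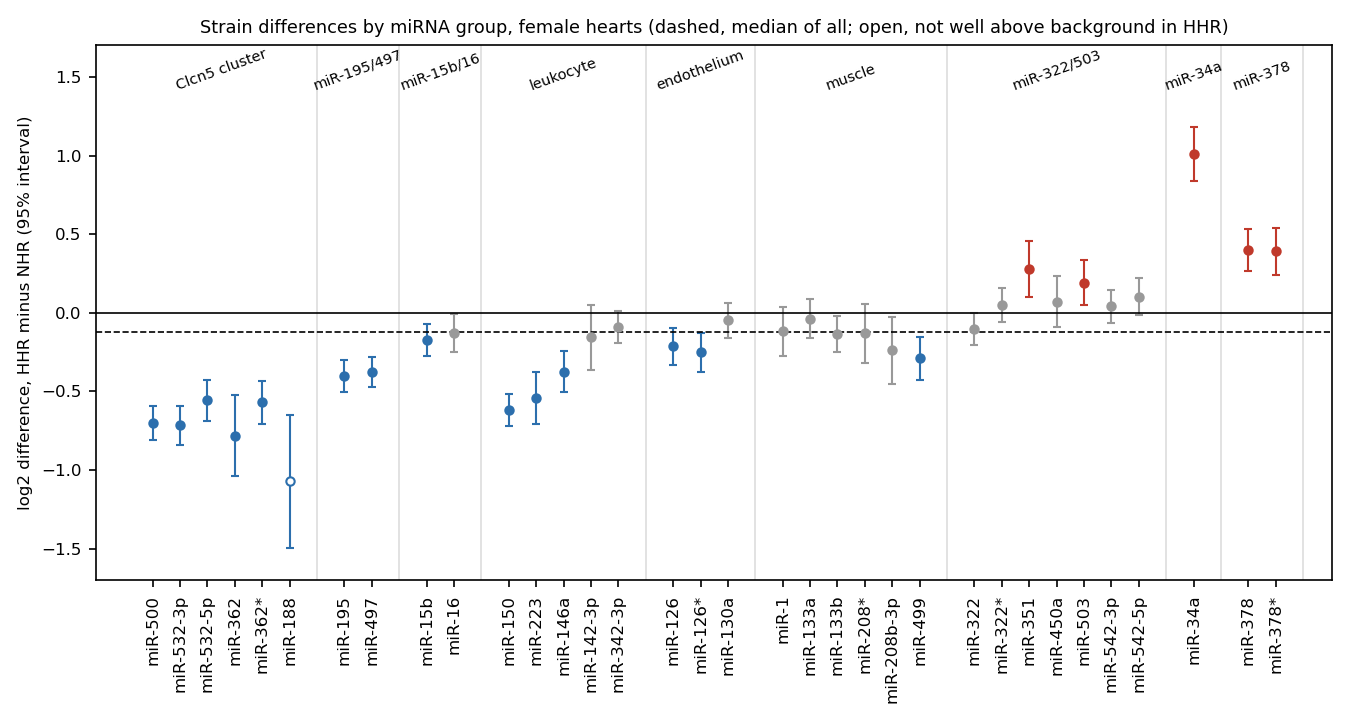
Log2 difference, HHR minus NHR, with its 95% interval (y axis) for the miRNAs of 9 groups (x axis) in female hearts; red and blue mark calls, grey the rest, and the open point was not well above background in HHR. All 6 of the Clcn5 cluster lie below the dashed median of −0.12, and the miR-378 arms and miR-34a lie above 0; points close to the median change sign under other scalings, as miR-15b, miR-126, miR-126* and miR-499 do.

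miRNAs described as promoting cardiac hypertrophy gave 5 lower and 0 higher calls among 11 tested, with a median of −0.15. Over all 222 the shares were 28.8% lower and 5.41% higher and the median was −0.12. These were miR-195 and miR-499, above, and miR-23b, miR-23a and miR-27a, lower by 0.17 to 0.19. miR-21 differed by −0.15 (adjusted p = 0.0698). Those described as opposing hypertrophy gave calls both ways among 14 tested, 2 higher in HHR, which were miR-378 and miR-34a, and 2 lower, which were miR-223 and miR-150, with a median of −0.09. The membership of these lists follows published work in other models and not this strain.

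In the large families the differences of the listed members were mostly small and lay around the median. Their counts stand beside 28.8% called lower and 5.41% called higher over all 222. Of 8 let-7 miRNAs, known for rising as tissues mature, 2 were called lower, near that share, let-7a and let-7d, by 0.14 and 0.15. Both calls were lost on leaving out single hearts and both signs turned under 4 scalings. The star arms, not counted among these 8, differed by more. let-7b* was called lower by 0.56 (adjusted p = 0.00402), and let-7d* differed by −0.61 (adjusted p = 0.0759). None of 10 miRNAs of the growth-promoting cluster from miR-17-5p to miR-92a and its paralogs was called, at −0.07 to 0.08, so that they stood slightly above the median of all miRNAs. Of the miR-29 family, which acts on collagen genes, 0 of 3 were called. In the miR-30 family 1 of 10 was called, miR-30c, lower by 0.18 (adjusted p = 0.0132). miR-23b, miR-23a and miR-27a made 3 lower calls of 5 in the miR-23/27/24 clusters, and miR-181d, lower by 0.25, was 1 of 4 in its family. The signs of miR-30c, miR-23a, miR-23b and miR-27a turned under 4 scalings, and that of miR-181d under 3. miR-210, induced by low oxygen, lay at 7.75 to 7.89 in HHR and 8.09 to 8.21 in NHR (−0.34 ± 0.05, SE, adjusted p = 0.00119) and was picked for mention after its values were seen.

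Several of the largest lower values came from dim miRNAs. miR-211*, from an intron of Trpm1, read 2.66 to 3.16 in HHR, where no array was well above background, and 3.85 to 4.39 in NHR, so that it was at least 1.41-fold lower in HHR (adjusted p = 9.64e-04). miR-92b was at least 1.05-fold lower (adjusted p = 0.0113) and miR-466b at least 1.28-fold lower (adjusted p = 0.039). The miR-466b levels ran from the floor of 1.00 to 3.18 in HHR and from 3.14 to 4.68 in NHR. They overlapped, and the call was lost on leaving out any of 5 hearts. miR-192, of gut, kidney and liver, read 2.41 to 2.84 in HHR and 3.46 to 3.71 in NHR (adjusted p = 5.60e-04), and miR-219-5p 2.87 to 2.96 and 3.33 to 3.60 (adjusted p = 3.91e-04). No fold is given for these 2, since the bound was under 1. miR-672 and miR-466b-1* were better measured, with 3 of 4 HHR and 4 of 4 NHR arrays well above background, and were lower by 0.84 (adjusted p = 0.0215) and 0.78 (adjusted p = 0.00379). miR-1249, miR-3593-3p, miR-3085 and miR-3573-3p, well above background on all 8 arrays, were lower by 0.64 to 0.67.

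Of the 4 differences farthest from 0, only that of miR-466b, given above, was called, and the other 3 come first here. miR-3584-5p read 2.10, 1.75, 3.43 and 2.02 in HHR, not well above background on any array, and 2.56, 4.87, 8.30 and 7.99 in NHR. Both high values were on slide 2, where the strain difference was −5.42, against −1.79 on slide 1. The NHR mean of miR-3584-5p lay at 4.83 times the bound for HHR, but it was not called (adjusted p = 0.0534). For miR-32*, also not called, the NHR mean lay at 1.08 times its HHR bound (adjusted p = 0.0625). miR-3588 read 1.00, 3.46, 3.39 and 1.00 in HHR, where 1.00 is the floor, and 3.22 to 4.41 in NHR (adjusted p = 0.0805). A further uncalled miRNA, miR-31, lay on the other side, at 2.90 to 4.46 in HHR and 1.94 to 3.18 in NHR (adjusted p = 0.141). These 4 were picked after their values were seen, and their spread between hearts of a strain was wide.

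Hairpin arms, probes, genomic positions, seeds and base content were then set beside the calls. Of 30 hairpins with both arms among the 222, 24 had the same sign in both arms, and all 4 with both arms called (miR-126, miR-362, miR-378 and miR-532) had the same direction. Across the 30 pairs the differences correlated at r = 0.68 (Spearman 0.60), a description over arms measured on the same arrays. For 110 miRNAs measured by at least 2 probes well above background, those probes had the same sign for 109, among them all 37 called ones. The same probes were averaged into the levels that gave the calls, so this is a description and not separate support. By position on GRCr8, 99 miRNAs fell into 31 clusters with hairpins within 10 kb of each other. All measured members were called the same way in 3 clusters (Clcn5, miR-195 with miR-497, and miR-296* with miR-298), calls went both ways in 1 (in the Dlk1-Dio3 region), and 12 held no call. Of 23 miRNAs placed on chromosome X alone, 2 were called higher and 8 lower, close to the 5.41% and 28.8% of all 222. This count leaves out miRNAs that also have an autosomal copy, such as let-7f and miR-19b. It also leaves out miR-362 of the Clcn5 cluster, which has no RefSeq entry here. By shared seed, 68 miRNAs fell into 24 groups. miR-129-1* and miR-129-2*, which come from hairpins on different chromosomes and share the seed AGCCCUU, were both lower, by 0.48 and 0.54. All 19 bases of miR-129-1* are the first 19 of the 22 of miR-129-2*, so that the array may not tell them apart. The median GC content was 52.4% for the higher, 47.6% for the lower and 47.6% for the uncalled miRNAs.

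The difference varied with level. Sorted by mean level, the 74 dimmest miRNAs had a median difference of −0.20, the next 74 had −0.12 and the 74 brightest had −0.09. Calls fell 4 higher and 24 lower in the dimmest set, 6 and 24 in the next and 2 and 16 in the brightest. The medians ran the same way in males, at −0.16, −0.08 and −0.06. Against NHR female 3 alone the 3 medians were −0.24, −0.17 and −0.16, and against the other NHR arrays −0.18, −0.10 and −0.08.

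**Figure D4:**
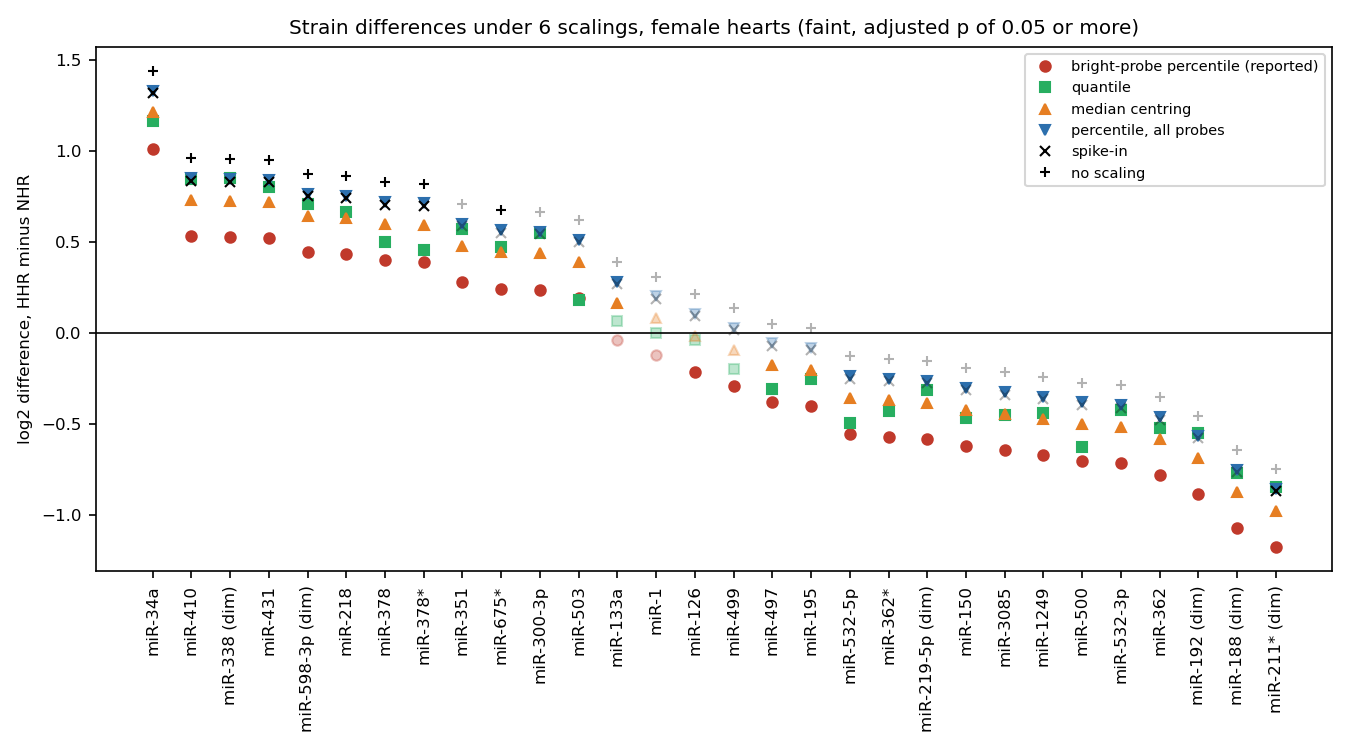
Log2 difference, HHR minus NHR (y axis), of 30 miRNAs (x axis) in female hearts under 6 scalings, each with its own symbol, faint where the adjusted p was 0.05 or more; dim marks miRNAs not well above background in 1 strain. The 12 higher miRNAs at the left stay above 0 under all 6 and the 12 at the right stay below 0, while miR-133a, miR-1, miR-126, miR-499, miR-497 and miR-195 between them cross 0. The other scalings mostly moved points up, so that staying above 0 was hardly at risk.

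Males served as other animals for the same contrast, fitted on their own 8 arrays with the same 222 miRNAs. There 24 were called (10.8%), 6 higher in HHR (2.7%) and 18 lower (8.11%). All 76 female calls had the same sign in males, against 198 of all 222 miRNAs, and 20 were called in both sexes, 5 of them higher. Levels of the male strains did not overlap for 43 miRNAs (19.4%). miR-34a differed by 0.90 ± 0.07 in males (SE, adjusted p = 7.77e-05), miR-378 by 0.42 (adjusted p = 0.00318) and miR-500 by −0.73 (adjusted p = 7.77e-05). The median of the Clcn5 cluster was −0.64, and 5 of its 6 members were called lower. miR-410 and miR-431 differed by less than in females, at 0.26 (adjusted p = 0.141) and 0.13 (adjusted p = 0.414). miR-32*, miR-326, miR-3588 and miR-490* were called in males and not in females. The difference between the sexes was tested over all 16 arrays as the interaction of strain and sex in limma. No miRNA passed, with a smallest adjusted p of 0.937 and 9 at an unadjusted p under 0.05. The sexes share slides but no animals, and the small groups leave room for differences between them that this test would miss.

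**Figure D5:**
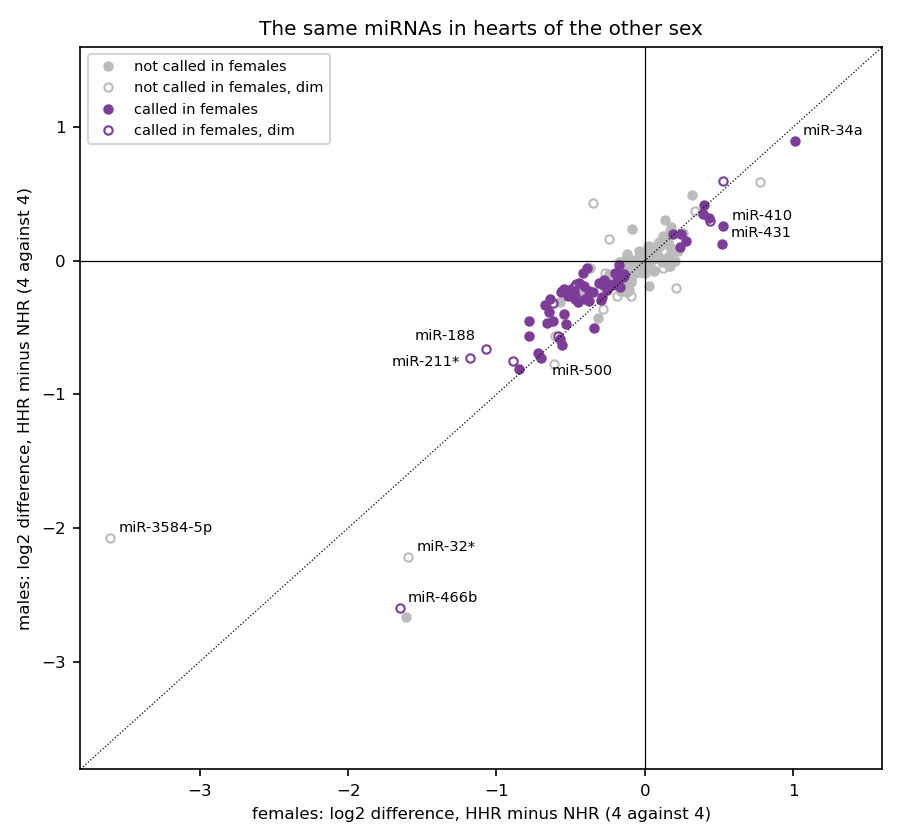
Log2 difference, HHR minus NHR, of each of the 222 miRNAs in females (x axis, 4 against 4 hearts) and in males (y axis, 4 against 4 hearts), with the line of equality dotted; purple points were called in females and open points were not well above background in 1 or both strains. The 76 purple points all lie at the lower left or upper right of the origin; other scalings move points near 0 across the axes.

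At the edge of the rule, miR-382, miR-3562, miR-511*, miR-99b*, miR-32* and miR-3584-5p were detected on exactly 4 arrays and entered. miR-125b*, miR-206, miR-21* and miR-221, detected on exactly 3, did not. The mean log2 level of miR-382 was 2.24 in HHR and 2.11 in NHR. The mean of miR-221, just outside, was 3.11 in HHR and 2.91 in NHR, and that of the skeletal muscle miRNA miR-206 was 2.08 and 2.42. Levels inside and outside the rule overlapped, so that being outside it does not mean absence from these hearts.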

How the data were processed

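The authors deposited the scanner output of 1-colour Agilent rat miRNA arrays, 1 per animal. Per the file headers, Agilent Feature Extraction 10.7.3.1 gave each spot a linear intensity after background subtraction, with arrays not scaled to each other. The flags for detection and for spots well above background, values of 0 or 1, are those deposited with the scanner output. The authors deposited their own log2 values as well, 1 for each miRNA on each array, with limma named in the submitters' processing notes. Every column of them gave r = 0.999 against the log2 median signal of its own array, and column medians ran from 6.13 to 6.15. Their scale is thus log2, while background correction, scaling and centring stay unknown, so they entered as an alternative.

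Levels were computed from the processed signal. Control and outlier spots were left out, and spots of a probe were averaged. Each array was scaled to the same 75th percentile over the 267 probes bright on every one of the 8 arrays (well above background). Probes of a miRNA were averaged, values under 2.00 (the median, over arrays, of the lowest detected level, or 1.00 as log2) were set to it, and log2 was taken. Of 1776 values 9 were at the floor, and 0 spots were saturated. limma 3.58.1 in R 4.3.3 was fitted to the 8 female arrays alone, with Benjamini-Hochberg adjustment over 222 miRNAs and a threshold of 0.05. It was also run on simulated levels with independent noise and planted differences. Those held no brightness shift between arrays and no scaling step, so they do not bear on the choice of scaling. Where no array of a strain was well above background, the difference is given as at least N-fold: the brighter strain's mean against, per array, the higher of the lowest signal well above background and the dim probe's own. This bound leaves out the spread between hearts, so for uncalled miRNAs it is not a minimum difference. Array measures were compared by two-sided exact permutation tests. The number of arrays limits the precision.

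The members and the lists of miRNAs were chosen with earlier results of these data known. The rule for named miRNAs took, among called ones, the 10 largest differences each way among those detected on all 8 arrays, up to 5 each way among the rest, up to 3 per list by smallest p, both arms of a named hairpin, and always miR-1, miR-133a, miR-208, miR-208b and miR-499; miR-208 itself was not among the 222. Old array names were matched to current arm names for the sequences. The genomic positions are those of RefSeq on GRCr8; the file headers name rn4 for the array. Alternatives covered the scaling, background, floor, detection filter, slide, replicate number, array weights and each heart left out.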

Additional observations from a re-analysis of the deposited data

Results flagged for a closer look

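In 4 of 124 groups of 4 hearts tested, 1 heart stood far from the other 3, where chance alone gives about 1 in 20. The brightness of NHR female 3 was 459.8, against 312.3 to 315.9 in the other NHR females. The same heart had the lowest miR-92b of its strain, 3.30 against 3.87 to 3.89 on the log2 scale, and the highest miR-126, 10.34 against at most 10.19. Without it, and with the slide as a block, a fit added after seeing the data, 76 miRNAs were called, 68 of them among the 76 of all hearts. HHR female 1 read 2.47 for miR-188, against 3.15 to 3.24 in the other HHR females, and no HHR array was well above background for it.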

How the results depend on the processing

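The 76 calls in females became 120 with the 75th percentile over all probes, 9 without scaling, 9 with the spike-in controls and 3 in the authors' deposited value table. Within slide 1 there were 44 and within slide 2 there were 22, with 2 hearts a strain in each. On leaving out 1 heart at a time the number ran from 41 to 74. In males the 24 calls became 59 with the percentile over all probes, 5 without scaling and 5 with the spike-ins. The brightness difference between strains was 102.1 to 151.3 intensity units on leaving out 1 array, with the highest value and an exact permutation p of 0.0286 without NHR female 3. Normexp background correction split the calls into 6 higher and 94 lower, and scaling to the total gene signal into 29 and 29.

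Equal replicate numbers did not pair the hearts: deviations from the strain means correlated at 0.07, 0.01, 0.20 and 0.00290 across miRNAs. With the replicate block 61 miRNAs were called in females, 58 of them among the 76, and 16 in males.

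For the named miRNAs, leaving single hearts aside, 940 alternative values kept sign and side of the threshold, 236 kept the sign but lost the call and 13 kept it and gained one. The sign changed in 122, of which 70 were called in the reported or the alternative fit and 52, of 9 miRNAs, in neither. The 9 were miR-1, miR-133a, miR-133a*, miR-208b-3p, miR-21, miR-25, miR-29c, miR-144 and miR-144*, and without scaling miR-1 was at 0.31, miR-133a at 0.39, miR-25 at 0.36 and miR-21 at 0.28. The values of the 70 follow. With the percentile over all probes they were 0.0292 for miR-499, 0.13 for miR-23b, 0.15 for miR-15b, miR-23a and miR-27a, 0.18 for let-7a and miR-143, 0.17 for let-7d, 0.25 for miR-25, 0.19 for miR-29c, 0.14 for miR-30c, 0.0702 for miR-181d, 0.0687 for miR-126*, 0.11 for miR-126, 0.28 for miR-133a and 0.31 for miR-133a*. Without scaling they were 0.14 for miR-499, 0.0263 for miR-195, 0.24 for miR-23b, 0.0513 for miR-497, 0.26 for miR-15b, miR-23a and miR-27a, 0.29 for let-7a and miR-143, 0.28 for let-7d, 0.25 for miR-30c, 0.18 for miR-181d and miR-126*, 0.21 for miR-126, 0.0532 for miR-146a and 0.0827 for miR-7a. With the spike-ins they were 0.0155 for miR-499, 0.12 for miR-23b, 0.13 for miR-15b, miR-30c, miR-23a and miR-27a, 0.17 for let-7a and miR-143, 0.16 for let-7d, 0.0565 for miR-181d, 0.0550 for miR-126* and 0.0917 for miR-126. In the authors' deposited value table they were 0.0773 for miR-499, 0.18 for miR-23b, miR-30c, miR-23a and miR-27a, 0.0109 for miR-497, 0.19 for miR-15b, 0.24 for let-7a, let-7d and miR-143, 0.0454 for miR-181d, 0.0555 for miR-126*, 0.17 for miR-126, 0.00249 for miR-146a and 0.00357 for miR-7a. With median centring they were 0.0101 for miR-23b, 0.0274 for miR-15b, 0.0606 for let-7a, 0.0549 for let-7d, 0.13 for miR-25, 0.0239 for miR-30c, 0.0267 for miR-23a, 0.0271 for miR-27a, 0.0615 for miR-143 and 0.16 for miR-133a. After normexp miR-351 was at −0.0074. Apart from the shift of the common level that each scaling makes by its construction, the cause was not tested.

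Arrays cannot tell a common shift of all miRNAs from unequal input, so differences are relative between miRNAs. Signal close to background bounds the fold of dim miRNAs, and 4 hearts a strain limit the precision.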
